A study of Homo sapiens with 6 samples.

Results

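The mRNAs of 8 amino acid transporter genes were compared between RNA recovered with phosphorylated UPF1 and a control RNA population in HEK293T, a line derived from human embryonic kidney and carrying viral transforming genes. The genes SLC7A11, SLC7A5, SLC3A2, SLC7A1, SLC38A2, SLC38A1, SLC1A4 and SLC1A5 were taken by symbol, 8 of the 26364 gene symbols in the count table, and each of them passed the filter on low counts. UPF1 is the RNA helicase of nonsense-mediated mRNA decay (NMD), and it is phosphorylated on mRNAs that this pathway degrades. The p-UPF1 IP group was RNA from 3 libraries (replicates 3, 6 and 9) immunoprecipitated with an antibody against phosphorylated UPF1, and the pre-IP group was 3 libraries (replicates 1, 4 and 7) titled as taken before the IP. Cells of both groups had received 200 nM okadaic acid for 3 h, a phosphatase inhibitor that preserves phosphorylated UPF1, so no library shows cells without the drug. The pre-IP libraries also carry the label of rabbit IgG, the mock antibody, so the labels leave it unsettled whether the control is total RNA or RNA held by a non-specific antibody. No label says that replicates came from separate cultures, so the p-values measure only how these libraries vary, and that variation may be technical.

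Amino acid transporters of the plasma membrane supply cells with building blocks for protein synthesis. SLC7A5 and SLC7A11 are light chains that work as heterodimers with the heavy chain SLC3A2 (CD98hc), the first exchanging large neutral amino acids and the second importing cystine for glutathione synthesis. SLC7A1 carries arginine and lysine, SLC38A1 and SLC38A2 are sodium-coupled carriers of glutamine and other small neutral amino acids, and SLC1A4 and SLC1A5 exchange alanine, serine, cysteine and glutamine. Several of these genes are transcribed by ATF4, the transcription factor of the amino acid and integrated stress responses, whose own mRNA is a known NMD target.

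Promoter sequences are shown because ATF4 acts on such genes through a short composite element, and because the members that moved together could be set beside the members that did not. The letters TGATGNAA, the core of that element, were searched on both strands in RefSeq windows (GRCh38.p14, a later build than that of the counts) of 300 bases, 250 before and 50 after each annotated start. The motif occurred in 5 of the 7 members that had a window and in 5 of their 13 windows, against 1217 of 27305 genes (4.46%) and 1270 of 35116 windows (3.62%) in the whole table. SLC7A11 had no window. In the sequences below, written 5′ to 3′ on the gene's strand, capitals mark the match. The SLC1A4 window lies at chr2:64989149-64989448 (+ strand) and holds the motif in reverse orientation at bases 244 to 251, next to the start. The SLC7A1 window lies at chr13:29595639-29595938 (- strand), with the match at bases 258 to 265. The SLC38A1 window at chr12:46266467-46266766 (- strand) has it at bases 247 to 254, and the SLC1A5 window at chr19:46784765-46785064 (- strand) at bases 154 to 161.
SLC1A4: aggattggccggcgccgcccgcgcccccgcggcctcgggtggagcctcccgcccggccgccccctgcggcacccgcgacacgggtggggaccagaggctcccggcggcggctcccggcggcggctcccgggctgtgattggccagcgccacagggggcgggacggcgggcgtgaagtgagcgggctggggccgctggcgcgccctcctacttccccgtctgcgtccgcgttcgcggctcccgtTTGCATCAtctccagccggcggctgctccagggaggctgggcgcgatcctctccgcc
SLC7A1: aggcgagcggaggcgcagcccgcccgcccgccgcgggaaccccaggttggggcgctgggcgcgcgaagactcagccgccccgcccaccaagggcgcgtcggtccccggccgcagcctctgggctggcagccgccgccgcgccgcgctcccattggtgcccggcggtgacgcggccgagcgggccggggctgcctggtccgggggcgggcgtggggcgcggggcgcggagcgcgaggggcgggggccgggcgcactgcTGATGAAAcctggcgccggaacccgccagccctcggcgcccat
SLC38A1: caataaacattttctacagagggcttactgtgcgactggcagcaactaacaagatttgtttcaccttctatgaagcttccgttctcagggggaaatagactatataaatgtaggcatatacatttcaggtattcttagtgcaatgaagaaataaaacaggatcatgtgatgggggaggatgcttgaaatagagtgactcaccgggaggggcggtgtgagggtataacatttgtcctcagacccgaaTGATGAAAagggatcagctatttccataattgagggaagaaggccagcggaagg
SLC1A5: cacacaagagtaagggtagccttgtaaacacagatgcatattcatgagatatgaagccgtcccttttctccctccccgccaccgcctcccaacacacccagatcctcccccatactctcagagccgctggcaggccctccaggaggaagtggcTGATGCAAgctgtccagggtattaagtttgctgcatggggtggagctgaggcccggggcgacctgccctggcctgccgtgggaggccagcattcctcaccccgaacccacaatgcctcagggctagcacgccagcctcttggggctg
SLC1A4 and SLC38A1 each had 2 windows and SLC1A5 had 3, and of each gene only the window shown held the motif. The other windows of these genes lay further upstream. The 5th member with a match was SLC3A2, in 1 of its 3 windows, and neither SLC38A2 nor SLC7A5 had these letters in its single window. Of the 4 members shown, SLC1A4 and SLC7A1 rose with p-UPF1 and SLC38A1 and SLC1A5 did not pass the test, so genes with the motif stood on both sides of the threshold. A match describes the letters of a window and is not evidence of binding.

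Libraries held 905926 to 2057647 counts in p-UPF1 IP and 600244 to 1179369 in pre-IP. The 8 genes together took 0.248%, 0.357% and 0.371% of all counts in p-UPF1 IP replicates 3, 6 and 9, against 0.0648%, 0.0465% and 0.0740% in pre-IP replicates 1, 4 and 7. Levels are given below as CPM, counts scaled to a common library size after TMM normalization, which centres the bulk of genes between libraries. The TMM factors differed between the groups, at 1.53 to 2.05 in p-UPF1 IP and 0.469 to 0.672 in pre-IP. What filled the libraries otherwise was not tested. On that scale the 8 genes summed to 1558, 2392 and 1879 CPM in p-UPF1 IP and to 977, 999 and 1208 CPM in pre-IP. In bulk RNA, fewer cells of a type and less RNA per cell cannot be told apart, and a rise relative to other RNAs is likewise all that a library can show. The 9 HEK293T marker genes, among them VIM and CDH2, all had counts and took 0.0973% to 0.114% of counts in p-UPF1 IP and 0.0200% to 0.0287% in pre-IP, and 0 of the 6 tested were called by edgeR or limma-voom, against 1 higher by DESeq2 and 1 higher at an unadjusted edgeR p under 0.05. Of 20 markers of blood, liver, fibroblast, muscle, epidermis and other cells, 15 had no count in any library, and the list summed to 7 to 14 counts in p-UPF1 IP and 0 to 6 in pre-IP libraries.

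Of the 8 transporter mRNAs, 4 rose in p-UPF1 IP and 0 fell. SLC1A4, SLC7A11, SLC7A1 and SLC38A2 rose 2.42-fold to 3.52-fold, while SLC7A5, SLC3A2, SLC1A5 and SLC38A1 had fold changes of 1.25 to 1.72 that did not pass the test. Over all 8070 genes tested, 8.81% were called higher, 10.9% lower and 19.7% in either direction (edgeR quasi-likelihood F-test, Benjamini-Hochberg adjusted p under 0.05). At an unadjusted p under 0.05, 5 members were higher and 0 lower, and DESeq2 (7.56% of its genes higher) and limma-voom (8.07%) each called 4 higher and 0 lower. The median log2 fold change was 1.03 over the 8 members and 0.10 over all tested genes. CPM values of the groups did not overlap for 5 members, the 4 called and SLC7A5, all with p-UPF1 IP above pre-IP, and such separation was seen for 39.7% of all tested genes in either direction and for 21.9% upwards.

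**Figure D1:**
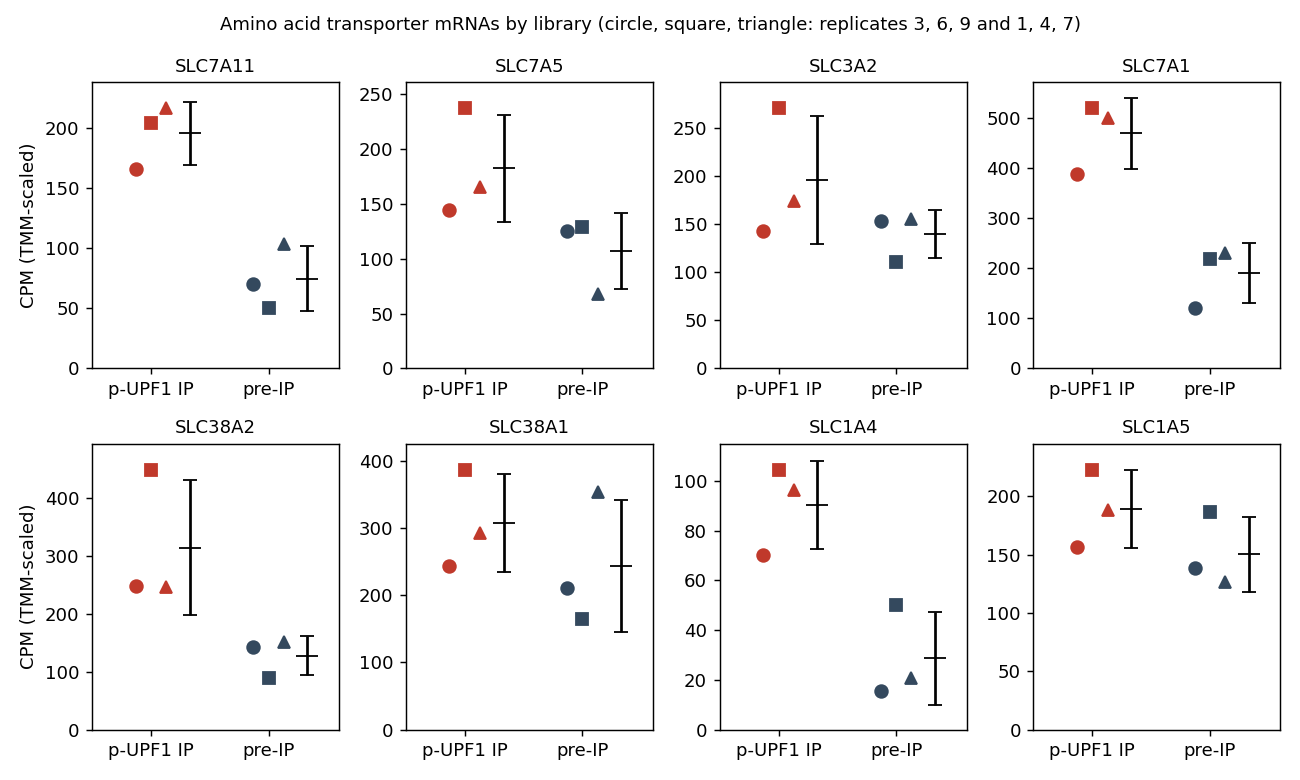
TMM-scaled CPM of each transporter mRNA (vertical axis, from 0) in the p-UPF1 IP libraries (red, left) and the pre-IP libraries (dark, right), with the group mean and SD (n = 3 each) as a bar. The groups are separate for SLC7A11, SLC7A5, SLC7A1, SLC38A2 and SLC1A4 and overlap for SLC3A2, SLC38A1 and SLC1A5.

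SLC7A11, the cystine importer xCT, had 544, 560 and 387 counts in p-UPF1 IP replicates 3, 6 and 9, against 55, 14 and 60 counts in pre-IP replicates 1, 4 and 7. These correspond to 166, 204 and 216 CPM in p-UPF1 IP and to 70.4, 50.1 and 104 CPM in pre-IP, so the lowest p-UPF1 IP library stood above the highest pre-IP library. The log2 fold change was 1.35 (SE 0.32, 95% interval 0.69 to 2.02, edgeR adjusted p = 0.00631), and 85.8% of tested genes had a lower one. The call held without each library in turn, with adjusted p from 0.00374 to 0.0370. With the trend of fold change on transcript length removed, SLC7A11 had a log2 fold change of 0.71 and edgeR adjusted p = 0.152.

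SLC7A5 (LAT1), the leucine exchanger, had 145, 237 and 166 CPM in p-UPF1 IP and 125, 129 and 67.4 CPM in pre-IP. The groups did not overlap, but the log2 fold change of 0.78 (SE 0.33, 95% interval 0.094 to 1.47) did not pass over all genes (edgeR adjusted p = 0.101). That SE was close to those of the called members SLC38A2 (0.33) and SLC7A1 (0.34). The copies SLC7A5P1 and SLC7A5P2, near-identical to part of SLC7A5, summed to 29 and 31 counts in p-UPF1 IP and to 15 and 11 in pre-IP, while SLC7A5 itself had 474, 652 and 296 counts in p-UPF1 IP and 98, 36 and 39 in pre-IP. Reads shared between SLC7A5 and these copies cannot be assigned. SLC3A2, the heavy chain common to LAT1 and xCT, had 143, 270 and 174 CPM in p-UPF1 IP and 154, 111 and 156 CPM in pre-IP. Its groups overlapped, and its log2 fold change was 0.47 (SE 0.31, 95% interval -0.19 to 1.13, edgeR adjusted p = 0.310).

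SLC7A1 (CAT1), the arginine and lysine carrier, was the member with the most CPM in p-UPF1 IP libraries. It had 387, 519 and 500 CPM there, from 1267, 1425 and 894 counts, against 120, 218 and 230 CPM in pre-IP, from 94, 61 and 133 counts. The log2 fold change was 1.32 (SE 0.34, 95% interval 0.61 to 2.03, edgeR adjusted p = 0.0110). Pre-IP replicate 1 was the lowest of its group, and without it the log2 fold change was 1.07 and edgeR adjusted p = 0.0663. With the transcript length trend removed it was 0.81 (edgeR adjusted p = 0.123).

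The paralogous glutamine carriers SLC38A2 (SNAT2) and SLC38A1 (SNAT1) differed in their calls. SLC38A2 had 247, 448 and 246 CPM in p-UPF1 IP and 143, 89.5 and 150 CPM in pre-IP, without overlap and with replicate 6 well above the other p-UPF1 IP libraries. Its log2 fold change was 1.27 (SE 0.33, 95% interval 0.57 to 1.98, edgeR adjusted p = 0.0129). Without p-UPF1 IP replicate 6 it was 0.91 (edgeR adjusted p = 0.0970), and with the transcript length trend removed 0.93 (edgeR adjusted p = 0.0780). SLC38A1 had 243, 387 and 292 CPM in p-UPF1 IP and 211, 165 and 354 CPM in pre-IP. The groups overlapped, with pre-IP replicate 7 above 2 of the p-UPF1 IP libraries, and the log2 fold change was 0.33 (SE 0.34, 95% interval -0.38 to 1.03, edgeR adjusted p = 0.536).

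The neutral amino acid exchangers SLC1A4 (ASCT1) and SLC1A5 (ASCT2) also differed in their calls. SLC1A4 had 230, 287 and 172 counts in p-UPF1 IP and 12, 14 and 12 counts in pre-IP, the thinnest counts of the 8 genes. In CPM these were 70.2, 104 and 96.2 in p-UPF1 IP and 15.4, 50.1 and 20.7 in pre-IP. The largest log2 fold change of the members was that of SLC1A4, 1.82 (SE 0.42, 95% interval 0.93 to 2.70, edgeR adjusted p = 0.00588), above that of 92.1% of tested genes. It ranged from 1.47 without pre-IP replicate 1 to 2.37 without pre-IP replicate 4, the library with the highest pre-IP value, and stayed past the threshold in all 19 alternatives. SLC1A5 had 156, 223 and 188 CPM in p-UPF1 IP and 138, 186 and 126 CPM in pre-IP, with overlap between the groups. Its log2 fold change was 0.35 (SE 0.29, 95% interval -0.27 to 0.97, edgeR adjusted p = 0.430).

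**Figure D2:**
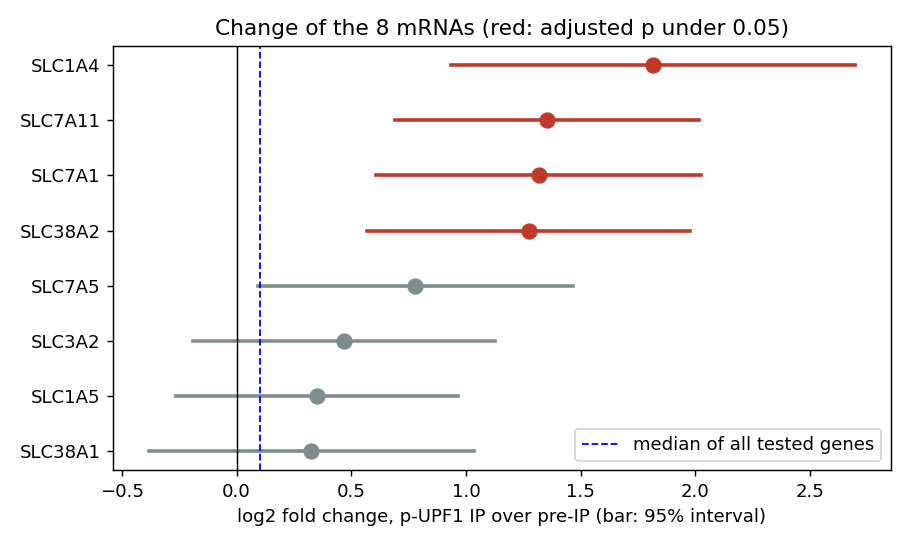
Log2 fold change of the 8 mRNAs, p-UPF1 IP over pre-IP (horizontal axis), with 95% intervals as bars, red where the adjusted p was under 0.05. SLC1A4, SLC7A11, SLC7A1 and SLC38A2 lie at 1.27 to 1.82, and the intervals of SLC3A2, SLC1A5 and SLC38A1 include 0. The dashed line is the median of all tested genes, 0.10.

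Ratios between members within a library do not depend on how libraries are scaled to each other. In p-UPF1 IP replicates 3, 6 and 9 there were 0.450, 0.469 and 0.511 SLC1A4 counts per SLC1A5 count, against 0.115, 0.276 and 0.170 in pre-IP replicates 1, 4 and 7. The mean log2 ratio was -1.07 ± 0.094 in p-UPF1 IP and -2.51 ± 0.63 in pre-IP (SD, n = 3 each), a difference of 1.44 with no overlap (two-sided exact permutation p = 0.1, Benjamini-Hochberg 0.2 over 6 ratios). For SLC38A2 to SLC38A1 the ratio was 1.02, 1.16 and 0.843 in p-UPF1 IP and 0.680, 0.548 and 0.426 in pre-IP. That was a log2 difference of 0.88, again without overlap (exact permutation p = 0.1, Benjamini-Hochberg 0.2). The smallest p that 3 libraries against 3 can give is 0.1, so these separations cannot pass a threshold of 0.05.

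The light chain SLC7A11 stood at 1.16, 0.754 and 1.24 counts per count of its heavy chain SLC3A2 in p-UPF1 IP, against 0.461, 0.460 and 0.669 in pre-IP. The log2 difference was 0.98 with no overlap (exact permutation p = 0.1, Benjamini-Hochberg 0.2). The other light chain, SLC7A5, stood at 1.01, 0.878 and 0.949 in p-UPF1 IP and at 0.817, 1.16 and 0.437 in pre-IP, which overlapped (log2 difference 0.34, exact permutation p = 0.6). Against SLC7A5, SLC7A11 had a log2 difference of 0.64 and SLC7A1 one of 0.56 (exact permutation p = 0.4 for both), with overlap in each case. Both overlaps came from pre-IP replicate 7. Without it the log2 differences were 1.20 for SLC7A11 and 1.03 for SLC7A1. The exact permutation p was 0.2 for both, the smallest that this test can give with 1 library left out. Over all libraries left out in turn the log2 differences ranged from 0.23 to 1.20 for SLC7A11 and from 0.12 to 1.03 for SLC7A1.

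**Figure D3:**
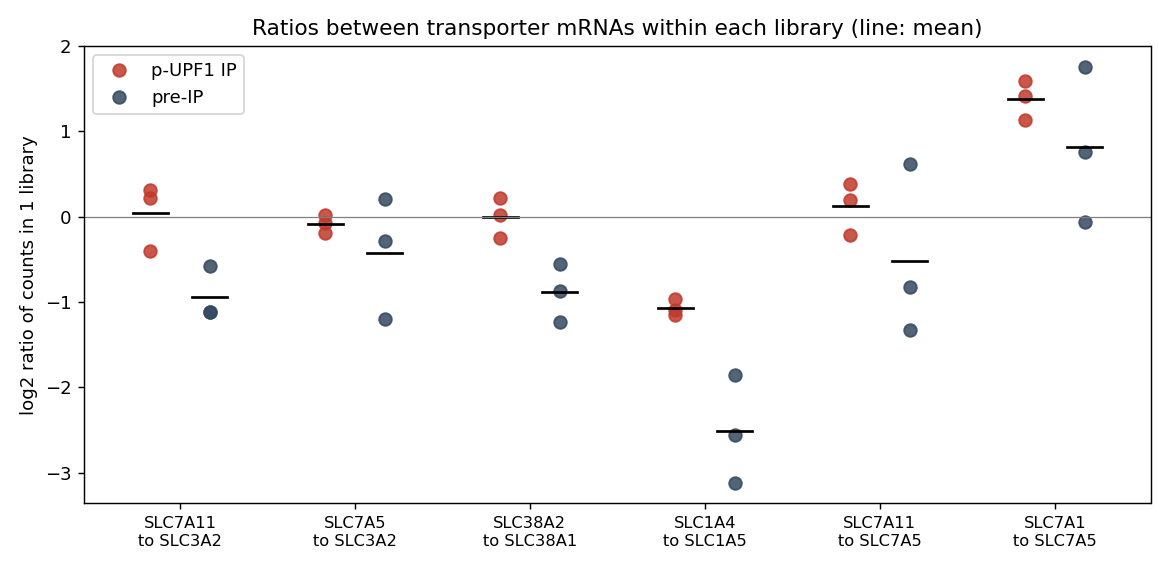
Log2 ratio of the counts of 2 transporter mRNAs within each library (vertical axis), for p-UPF1 IP (red, left of each pair) and pre-IP (dark, right), with a line at the mean. The groups are separate for SLC7A11 to SLC3A2, SLC38A2 to SLC38A1 and SLC1A4 to SLC1A5 and overlap for the 3 ratios with SLC7A5.

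Levels per kilobase of the principal GENCODE transcript were compared between genes, with CPM per kb as the scale. In p-UPF1 IP the order was SLC3A2 (90.7 ± 30.7), SLC1A5 (65.7 ± 11.5), SLC38A2 (64.2 ± 23.8), SLC7A1 (63.8 ± 9.70), SLC7A5 (40.2 ± 10.7), SLC38A1 (38.1 ± 9.04), SLC7A11 (20.3 ± 2.71) and SLC1A4 (19.8 ± 3.92), all CPM per kb (SD, n = 3). Between neighbours, the library values overlapped except for SLC7A1 against SLC7A5, where the lowest was 52.7 and the highest 52.3, and SLC38A1 against SLC7A11. In pre-IP SLC3A2 (64.8, range 51.4 to 72.0) and SLC1A5 (52.1, range 43.8 to 64.6) again led and SLC7A11 (7.75 ± 2.80) and SLC1A4 (6.30 ± 4.10) closed the order. SLC38A1 was the third member in pre-IP at 30.2 ± 12.3 CPM per kb and the sixth in p-UPF1 IP. Its pre-IP libraries (20.4 to 43.9) overlapped those of SLC38A2 (18.3 to 30.75), SLC7A1 (16.4 to 31.3) and SLC7A5 (14.85 to 28.4). The pre-IP order of these 4 members is therefore not settled. These levels assume that reads came from 1 transcript of each gene.

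Transcript length moved with the fold change across all genes. Over 7679 tested protein-coding genes, Spearman's rho between the log2 fold change and length was 0.346 for the whole transcript, 0.459 for the coding sequence and 0.105 for the 3′ UTR, a description across genes that share the same 6 libraries. In the longest quintile of genes (6004 nt or more) 18.8% were called higher, in the fourth quintile (4210 to 6003 nt) 11.7%, and in the shortest quintile (2048 nt or less) 2.28%. SLC7A11 (9645 nt), SLC38A1 (8066 nt) and SLC7A1 (7347 nt) fell in the longest quintile, SLC38A2 (4888 nt), SLC1A4 (4561 nt) and SLC7A5 (4537 nt) in the fourth, and SLC1A5 (2882 nt) and SLC3A2 (2161 nt) in the second. All 4 members that rose thus belonged to the 2 longest quintiles, together with SLC38A1 and SLC7A5, which did not pass the test.

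The members differed in length mainly through their 3′ UTRs. Their coding sequences spanned 1461 to 1890 nt, against a median of 1503 nt for tested protein-coding genes, whereas the 3′ UTR was 7859 nt in SLC7A11, 5907 nt in SLC38A1, 5070 nt in SLC7A1, 2947 nt in SLC7A5, 2922 nt in SLC38A2, 2719 nt in SLC1A4, 627 nt in SLC1A5 and 100 nt in SLC3A2, against a median of 1326 nt. With the trend on whole transcript length removed, 1 member was called, SLC1A4 (log2 fold change 1.51, edgeR adjusted p = 0.0284), while 4.91% of genes were called higher. With the trend on coding length removed, an alternative added after the data were seen, the same 4 members were called as without it, and 3.87% of genes were called higher. SLC7A11 then had a log2 fold change of 1.20, SLC38A2 1.11, SLC7A1 1.03 and SLC1A4 1.63 (edgeR adjusted p = 0.0243, 0.0379, 0.0425 and 0.0258). With the trend on 3′ UTR length removed, also added later, the 4 lay between 1.05 (SLC38A2) and 1.59 (SLC1A4) and all were again called, with 6.63% of genes called higher. The part that length plays in these changes was not tested beyond these fits.

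**Figure D4:**
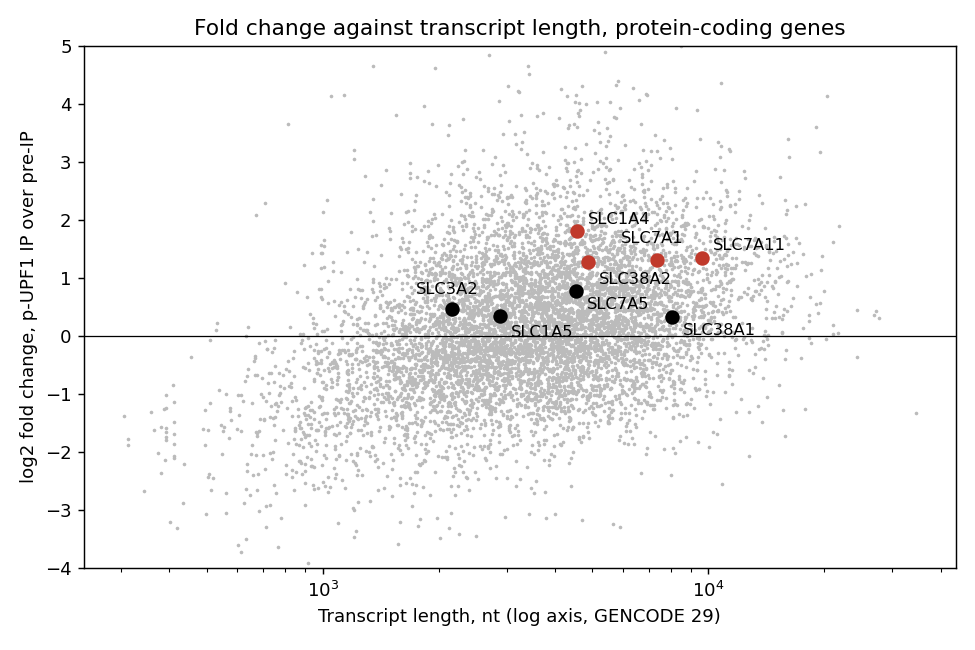
Log2 fold change, p-UPF1 IP over pre-IP (vertical axis), against transcript length in nt (log axis) for tested protein-coding genes (grey), with the transporters called higher in red and the others in black. The 4 red genes are 4561 to 9645 nt long, and of the black ones SLC38A1 has 8066 and SLC7A5 4537 nt, and 41 of the 7679 points lie beyond the vertical axis.

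Other features known to bear on NMD did not follow the calls in an obvious order. A long 3′ UTR, an upstream open reading frame and an exon junction downstream of the stop codon are classical features of NMD substrates. No principal transcript of the 8 had an exon junction more than 50 nt after its stop codon. Upstream ATG triplets in the annotated 5′ UTR numbered 7 in SLC38A1, 2 in SLC7A11, 1 in SLC38A2, SLC3A2 and SLC7A1 and 0 in SLC7A5, SLC1A5 and SLC1A4. GENCODE lists a transcript typed as an NMD substrate for 3 members, SLC7A11, SLC38A2 and SLC3A2, against 3550 of 7679 tested protein-coding genes (46.2%). Counts per gene symbol do not say from which transcript a read came. GENCODE also places SLC7A11-AS1, which had no count in any library, over 865 nt of SLC7A11 exons on the opposite strand.

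ATF4 mRNA itself did not pass the test. ATF4 had 730, 752 and 489 counts in p-UPF1 IP and 115, 52 and 62 in pre-IP. Its CPM was 257 ± 29.2 in p-UPF1 IP and 147 ± 39.5 in pre-IP, without overlap (SD, n = 3 each, log2 fold change 0.82, SE 0.30, edgeR adjusted p = 0.0607). It passed in 8 of 19 alternatives. Of 19 tested genes of the amino acid stress response, 3 rose and 1 fell, 15.8% and 5.26%, against 8.81% and 10.9% over all tested genes. ATF3, a transcription factor induced by ATF4, had a log2 fold change of 2.10 (SE 0.44, edgeR adjusted p = 0.00298), SESN2, a leucine sensor upstream of mTORC1, one of 1.44 (SE 0.36, edgeR adjusted p = 0.00930), and GCN1, the activator of the eIF2 kinase GCN2, one of 1.12 (SE 0.29, edgeR adjusted p = 0.0124). PPP1R15B, a regulatory subunit of the eIF2 phosphatase, fell by 1.01 on the log2 scale (edgeR adjusted p = 0.0207), and was at 0.53 with library totals alone. ASNS, the asparagine synthetase, had 368 ± 62.7 CPM in p-UPF1 IP and 501 ± 239 CPM in pre-IP (SD, n = 3 each, log2 fold change -0.43, edgeR adjusted p = 0.429). ATF3 passed in all 19 alternatives, SESN2 in 18, GCN1 in 15, at -0.097 with the coding length trend removed and with edgeR adjusted p = 0.0756 without p-UPF1 IP replicate 3, and PPP1R15B in 12, with a highest edgeR adjusted p = 0.108 among libraries left out, without p-UPF1 IP replicate 3. With the GC trend removed SESN2 was at 0.95, GCN1 at 0.82 and PPP1R15B at -0.74 (edgeR adjusted p = 0.0756, 0.0608 and 0.0853), and with the transcript length trend removed GCN1 was at 0.53 (edgeR adjusted p = 0.251). Without the filter on low counts PPP1R15B had edgeR adjusted p = 0.0944. ATF3 had 22, 11 and 7 counts in pre-IP replicates 1, 4 and 7, and passed that filter in part through its p-UPF1 IP libraries.

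Few other amino acid transporters were counted deeply enough to test. Of 49 listed, 20 had no count in any library and 14 were tested. Among those, 2 rose and 0 fell (14.3% higher, against 8.81% over all tested genes), with a median log2 fold change of 0.21. At an unadjusted p under 0.05, edgeR had 3 higher and 1 lower. DESeq2 called 2 higher and 0 lower of the 20 it tested, and limma-voom 2 and 0 of 14. The 2 that rose had almost no pre-IP counts and passed the filter on low counts only through the p-UPF1 IP libraries. A gene this thin in pre-IP could be tested only if it was high in p-UPF1 IP, so the filter favoured rises among such genes. PQLC2, an exporter of cationic amino acids, had 55, 38 and 33 counts in p-UPF1 IP and 4, 0 and 0 in pre-IP (edgeR adjusted p = 0.0413). SLC36A4, a carrier of neutral amino acids, had 75, 64 and 32 counts in p-UPF1 IP and 7, 0 and 0 in pre-IP (edgeR adjusted p = 0.0499). When 1 library was left out, both genes missed the threshold in 5 of 6 cases, with a highest edgeR adjusted p = 0.145 for PQLC2, without p-UPF1 IP replicate 9, and 0.163 for SLC36A4, without p-UPF1 IP replicate 3. Neither was called with the trend on GC (edgeR adjusted p = 0.139 for PQLC2 and 0.0579 for SLC36A4), coding length (0.0503 and 0.105) or 3′ UTR length (0.0513 and 0.0807) removed, nor SLC36A4 with that on transcript length removed (edgeR adjusted p = 0.130). Of the 98 tested SLC symbols other than the 8 members, a wider set added after the data were seen, 3 rose and 4 fell (3.06% and 4.08%, median log2 fold change 0.083).

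Of 6 mitochondrial carriers of amino acids tested, 1 rose and 1 fell (16.7% each, against 8.81% higher and 10.9% lower over all tested genes). SLC25A38, the glycine carrier of haem synthesis, had 135, 97 and 57 counts in p-UPF1 IP and 16, 1 and 3 in pre-IP (log2 fold change 1.68, SE 0.55, edgeR adjusted p = 0.0406), and missed the threshold in 5 of 6 cases when 1 library was left out, up to edgeR adjusted p = 0.163 without p-UPF1 IP replicate 3. SFXN1, a mitochondrial serine transporter, fell by 0.97 on the log2 scale (SE 0.29, edgeR adjusted p = 0.0249), was at 0.55 with library totals alone, and missed the threshold in 4 of 6 such cases, up to edgeR adjusted p = 0.1245 without p-UPF1 IP replicate 9. SFXN1 was not called with the trend on GC (edgeR adjusted p = 0.112) or coding length (0.0889) removed, nor SLC25A38 with that on 3′ UTR length removed (edgeR adjusted p = 0.0591) or by limma-voom (adjusted p = 0.0643). Without the filter on low counts SFXN1 had edgeR adjusted p = 0.123. SLC25A38, with 1 and 3 counts in pre-IP replicates 4 and 7, passed that filter through its p-UPF1 IP counts.

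In the list of genes of glutathione and cystine use, which includes SLC7A11, a few were called, in both directions. Of 12 tested, 2 rose (SLC7A11 itself and CBS) and 2 fell (TXN and GPX4), and the median log2 fold change was -0.24. That was 16.7% in each direction, against 8.81% higher and 10.9% lower over all tested genes. CBS, which makes cystathionine, had a log2 fold change of 1.07 (SE 0.30, edgeR adjusted p = 0.0195), lost without p-UPF1 IP replicate 3 or 9 or pre-IP replicate 7, up to edgeR adjusted p = 0.0924 without p-UPF1 IP replicate 9. TXN, thioredoxin, fell by 1.87 (SE 0.29, edgeR adjusted p = 0.000336), and GPX4, the glutathione peroxidase of lipid peroxides, fell by 1.71 (SE 0.50, edgeR adjusted p = 0.0235). With library totals alone TXN was at -0.29 and GPX4 at -0.15, and neither was called. With the transcript length trend removed TXN was at -0.76 and GPX4 at -0.66 (edgeR adjusted p = 0.0935 and 0.416). With the coding length trend removed TXN was at -0.67 and GPX4 at -1.13 (edgeR adjusted p = 0.151 and 0.165). CBS was at 0.57 with the GC trend removed and 0.85 with the coding length trend removed (edgeR adjusted p = 0.202 and 0.0762). GPX4 also missed the threshold without p-UPF1 IP replicate 3 or 6 or pre-IP replicate 1, up to edgeR adjusted p = 0.158 without the last of these.

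Amino acid sensing at the lysosome is the step by which imported leucine and arginine reach mTORC1. Of 28 tested genes of that machinery, 5 rose and 1 fell, with a median log2 fold change of -0.028. These were 17.9% and 3.57%, against 8.81% and 10.9% over all tested genes. RPTOR, the scaffold of mTORC1, had 187, 206 and 124 counts in p-UPF1 IP and 9, 3 and 3 in pre-IP (log2 fold change 2.87, SE 0.45, edgeR adjusted p = 0.000346) and passed in all 19 alternatives. The others were NPRL3, a GATOR1 subunit, with 99 counts in p-UPF1 IP and 1 in pre-IP (a ratio of 20.8, 95% counting interval 3.65 to 829), SESN2, TSC2 (log2 fold change 1.04, edgeR adjusted p = 0.0456) and the kinase MTOR (log2 fold change 0.91, edgeR adjusted p = 0.0372). RHEB, the small GTPase that activates mTORC1, had 57, 30 and 25 counts in p-UPF1 IP and 46, 20 and 30 in pre-IP and fell by 2.08 (SE 0.40, edgeR adjusted p = 0.00178), at -0.52 and not called with library totals alone. With the coding length trend removed MTOR was at -0.28 and TSC2 at 0.058 (edgeR adjusted p = 0.580 and 0.940). With the transcript length trend removed MTOR was at 0.32 and TSC2 at 0.62, and TSC2 was at 0.45 with the GC trend removed, none of them called. By limma-voom neither passed (adjusted p = 0.0531 for MTOR and 0.0795 for TSC2). TSC2 and MTOR missed the threshold in 5 of 6 cases when 1 library was left out, up to edgeR adjusted p = 0.140 for TSC2 without p-UPF1 IP replicate 3 and 0.149 for MTOR without p-UPF1 IP replicate 9. NPRL3 missed the threshold without p-UPF1 IP replicate 3 or 9 or pre-IP replicate 1, up to edgeR adjusted p = 0.0914 without p-UPF1 IP replicate 3. NPRL3 and RPTOR passed the filter on low counts only through the p-UPF1 IP libraries, so they could be tested only if high there.

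The neighbour of SLC3A2 on its chromosome, the snoRNA host SNHG1, had 147 ± 11.1 CPM in p-UPF1 IP and 144 ± 45.7 CPM in pre-IP (SD, n = 3 each, log2 fold change 0.05, edgeR adjusted p = 0.925). Of 9 tested genes in the list of member copies and neighbours, 0 rose and 5 fell, all of them snoRNAs of SNHG1 introns (SNORD26, SNORD27, SNORD28, SNORD29 and SNORD31). At an unadjusted edgeR p under 0.05 the list had 0 higher and 7 lower. DESeq2 called 0 higher and 7 lower of the 11 it tested, and limma-voom 0 and 7 of 9. With the transcript length trend removed 2 of the 7 genes then tested were called higher and 0 lower, with a median log2 fold change of 0.996, and with library totals alone 1 was called higher and 1 lower. No SNHG1 exon overlapped SLC3A2 in GENCODE.

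Across the 6 libraries, the tested gene with the smallest distance to each member in log2 CPM was POLR3A for SLC7A11 (distance 0.683), IFRD1 for SLC38A2 (0.632), BSG for SLC7A5 (0.634), NUP210 for SLC3A2 (0.634), PABPC1 for SLC7A1 (0.908), YWHAG for SLC1A5 (0.422), RPN2 for SLC38A1 (0.483) and PEA15 for SLC1A4 (0.494). The distance is the square root of the summed squared differences over the 6 libraries. BSG (basigin) is, like SLC3A2, a chaperone subunit of membrane transporters, in its case of the lactate carriers.

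Read against the share of all genes called higher, the number of members called higher changed little with RLE or upper-quartile scaling. It moved more with library totals alone and with the transcript length trend removed, where it was 1 (4.91% of genes). With the trend on coding length (3.87%) or 3′ UTR length (6.63%) removed it stayed at 4. It was 4 with RLE scaling (9.49% of genes), upper-quartile scaling (9.53%), the stricter filter (12.8%), the 10 most counted genes left out (9%), small structured RNAs left out (7.95%) and the GC trend removed (7.94%). It was also 4 without p-UPF1 IP replicate 3 (3.30%), p-UPF1 IP replicate 9 (3.62%), pre-IP replicate 4 (8.53%) or pre-IP replicate 7 (7.60%). Without the filter 5 were called (7.32%), SLC7A5 being the addition. It was 3 without p-UPF1 IP replicate 6 (3.99%), where SLC38A2 was lost, and 3 without pre-IP replicate 1 (9.03%), where SLC7A1 was lost. With library totals alone all 8 were called, as were 60.4% of all genes.

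**Figure D5:**
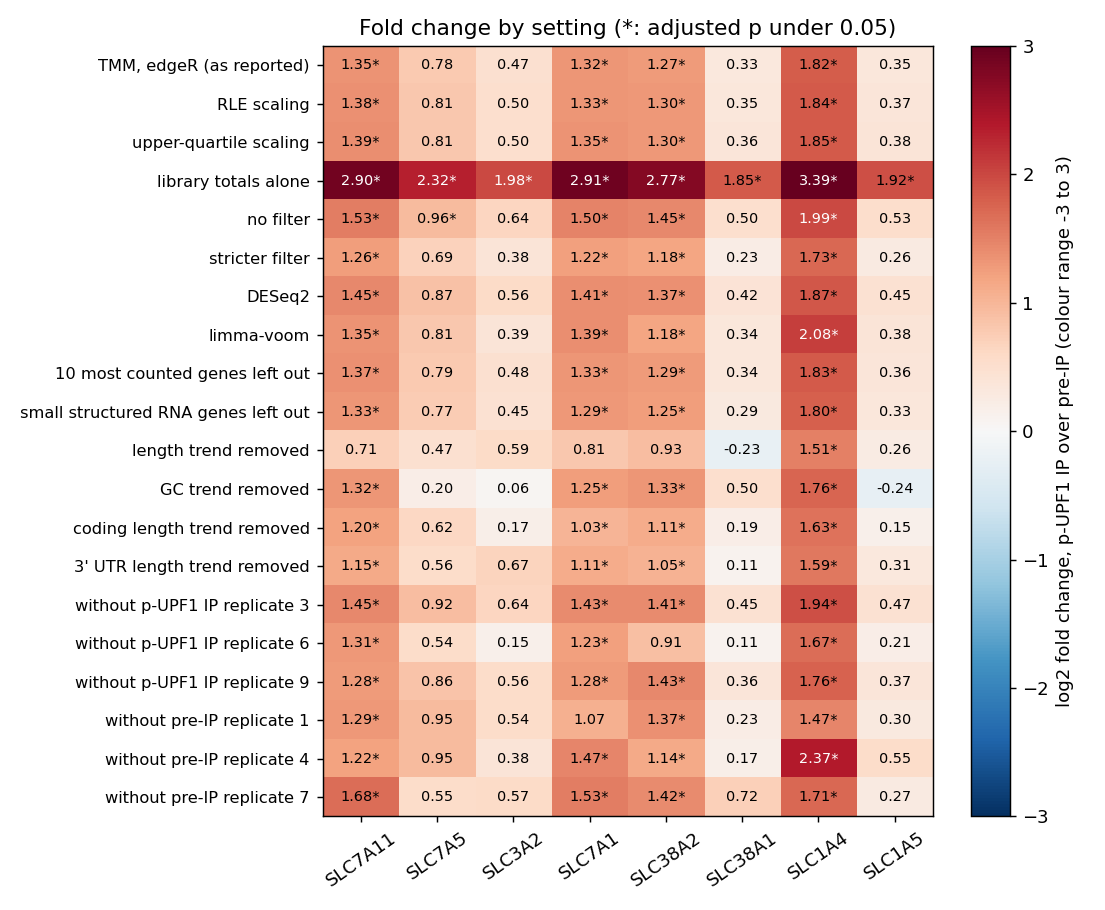
Log2 fold change of each transporter mRNA, p-UPF1 IP over pre-IP, under each setting (rows), with an asterisk where the adjusted p was under 0.05. SLC1A4 is called in every row, all 8 genes are called with library totals alone, and the transcript length trend leaves SLC1A4 alone past the threshold.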

How the data were processed

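RNA fragments from 6 HEK293T libraries were sequenced after rRNA depletion, dephosphorylation, ligation of 33-nt adapters at both ends, 20 cycles of PCR and selection of inserts above 20 bp, per the labels' protocols. The authors deposited raw counts, 1 whole number for each gene symbol and library. The submitters' processing notes name hg19, STAR 2.5.2b, cutadapt 1.15 and Subread 1.5.0p3 (featureCounts). Annotation, strandedness and multi-mapping rules were not given in the sources used here, so overlapping and near-identical genes cannot be told apart. PCR reads without molecular identifiers are not independent molecules, so intervals of counts cover counting error only.

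Counts were tested over all genes with edgeR 4.0.16 in R 4.3.3 (filterByExpr, minimum count 10, TMM, quasi-likelihood F-test, Benjamini-Hochberg at 0.05). The SE was derived from the F statistic. Ratios used counts plus 0.5 and an exact permutation test. The members and gene lists were chosen with earlier results of these data known. Named beside the members were the called genes of each list (otherwise its 2 most abundant), ATF4 and the nearest gene to each member; ASNS and SNHG1 were named after their values were seen. GENCODE 29 gave transcripts (the principal one per gene) for 8012 of the 8070 tested genes (99.3%), on a later build than the counts. Other settings tried were scaling by RLE, upper quartile or library totals alone, no filter and a minimum of 30, DESeq2 1.42.0, limma-voom (limma 3.58.1), the 10 most counted genes or the small structured RNAs left out, loess trends (span 0.5) on transcript length, GC, coding length or 3′ UTR length removed, and each library left out.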

Additional observations from a re-analysis of the deposited data

How the results depend on the processing

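The number of genes called over all genes was 1591 as reported, 5030 with library totals alone, 890 with the transcript length trend removed, 603 with the coding length trend removed, and 791 to 1628 without 1 library. Calls were 8 of the members with library totals alone, where the median log2 fold change of all genes was 1.63, 1 with the transcript length trend removed, and 3 to 4 without 1 library; under every other alternative run, 4 or 5 were called. The share of higher among all calls also moved with library totals alone, to 4874 higher and 156 lower, against 711 and 880. Signs turned for members in uncalled values: SLC38A1 was at -0.23 with the transcript length trend removed and SLC1A5 at -0.24 with the GC trend removed. Among other genes, with library totals alone PPP1R15B was at 0.53 and SFXN1 at 0.55. With the transcript length trend removed SNORD26 was at 0.996, SNORD27 at 0.50, SNORD28 at 0.86 and YWHAG at -0.094 (-0.089 with the 3′ UTR trend). With the coding length trend removed GCN1 was at -0.097, MTOR at -0.28 and NUP210 at -0.35. SNHG1 was at -0.037 with the stricter filter and between -0.16 and 0.27 without 1 library, -0.013 without p-UPF1 IP replicate 6. The log2 difference of SLC7A5 to SLC3A2 lay between -0.043 (without pre-IP replicate 7) and 0.66 without 1 library. The causes were not tested. No paired analysis was run, because the label numbers of the groups (3, 6 and 9, and 1, 4 and 7) share no value and so establish no pairs. Whether these numbers also mark libraries made together (1 with 3, 4 with 6, 7 with 9) is not said in the labels, and such a pairing was not tried. Depth limits the thinnest member, SLC1A4, with 12 to 14 counts in each pre-IP library.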
